A study of Mus musculus with 2 samples.

Results

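The mRNA of 9 genes of the Hippo pathway and of its CCN-type targets was followed in single cells of the mouse ovary: Yap1, Wwtr1, Tead1, Lats1, Lats2, Ccn1, Ccn2, Amotl2 and Ankrd1. They were taken by name, as 9 of the 29373 gene symbols in the deposited files, and all 9 were found. Ovarian cells of female ICR mice had been captured on BD Rhapsody beads, 1 library per group. Daily gavage started at 3 weeks of age and lasted 35 days, and the mice were 8 weeks old at the end. The control mice received ddH2O, and the PS-MP mice received polystyrene microplastics of 0.1 µm at 1 mg per 100 µL. The labels give n = 16 mice without saying whether this holds for each group, and no label ties a cell to a mouse. Each group was therefore 1 sample of pooled animals, with no replicate and no test of the exposure. Anything else that differed between the libraries cannot be told apart from the exposure.

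The Hippo pathway is a kinase cascade that restrains growth. Its kinases LATS1 and LATS2, encoded by Lats1 and Lats2, phosphorylate the coactivators YAP (Yap1) and TAZ (Wwtr1) and keep them out of the nucleus. When the kinases are quiet, YAP and TAZ bind TEAD factors such as TEAD1 on DNA and switch on targets that include Ccn1, Ccn2, Ankrd1 and Amotl2. Amotl2 and Lats2 act back on YAP as brakes. In the ovary the pathway is known for its part in follicle growth and granulosa cell proliferation. The activity of YAP and TAZ is set mainly by phosphorylation and location of the proteins, which mRNA counts do not show.

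TEAD factors bind sequences around GGAATG, so the stretch of 250 bases before the start of each member's RefSeq transcripts (GRCm38.p6) was searched for these letters on both strands. An entry was found for 7 of the 9 members, all but Ccn2 and Tead1. The letters stood in 5 of these 7 (Yap1, Wwtr1, Ccn1, Amotl2 and Ankrd1), against 12.6% of 32851 promoter windows of the same length. They were absent from the windows of Lats1 and Lats2. The 7 members had 9 windows, and a member was counted once, while the share over all promoters is by window. The windows of Ccn1, Amotl2 and Ankrd1 are shown as those of the named targets with an entry, which leaves out Ccn2. Capitals mark GGAATG or, where the match lies on the other strand, CATTCC.
Ccn1, chr3:145649986-145650235, minus strand: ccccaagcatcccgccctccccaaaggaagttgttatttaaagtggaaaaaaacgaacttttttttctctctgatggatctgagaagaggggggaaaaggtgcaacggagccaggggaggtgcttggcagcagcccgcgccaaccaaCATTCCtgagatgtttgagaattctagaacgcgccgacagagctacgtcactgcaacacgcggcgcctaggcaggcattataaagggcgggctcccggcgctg
Amotl2, chr9:102717554-102717803, plus strand: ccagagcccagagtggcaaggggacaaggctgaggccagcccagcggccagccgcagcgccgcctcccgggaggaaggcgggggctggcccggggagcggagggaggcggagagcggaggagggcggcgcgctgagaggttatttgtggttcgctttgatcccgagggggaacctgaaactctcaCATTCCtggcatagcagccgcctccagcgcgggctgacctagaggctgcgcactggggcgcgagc
Ankrd1, chr19:36119845-36120094, minus strand: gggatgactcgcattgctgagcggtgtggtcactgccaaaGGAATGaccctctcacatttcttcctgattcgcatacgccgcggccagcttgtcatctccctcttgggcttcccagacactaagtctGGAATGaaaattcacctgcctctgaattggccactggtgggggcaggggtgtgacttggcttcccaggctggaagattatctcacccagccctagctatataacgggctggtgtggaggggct
The match began 103 bases before the start of Ccn1 and 65 bases before that of Amotl2. Ankrd1 held a pair of matches, the first 210 bases before its start. In Yap1 the match lay 141 bases before the start, and in Wwtr1 170 or 136 bases before, depending on the transcript. The CArG box, the site of serum response factor, was in 0 of the 7 members and in 1.47% of all windows. A match is a description of letters and shows no binding.

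After removal of cells of high mitochondrial content and called doublets, 14538 control cells and 14412 PS-MP cells remained, with medians of 9502.5 and 8643.0 molecule counts (UMI counts) per cell. The libraries shared 3 cell barcodes. Clustering gave 18 clusters, which were named "-like" from marker genes. The names went with leading markers such as Cyp17a1 for theca, Cldn5 and Kdr for blood endothelium, Myh11 and Notch3 for smooth muscle or pericytes, Col1a1 and Dcn for stromal fibroblasts, Zp2 for oocytes and C1qa for macrophages. Granulosa-like cells (10244 control and 9123 PS-MP cells) fell into clusters 0, 1, 2, 3, 5 and 9. One luteal-like cluster, cluster 6, held 4 control and 1899 PS-MP cells, so the libraries stood apart there. Comparisons over all cells are given with and without it, and luteal-like ratios also within the other luteal-like cluster. The class orders and the correlations over classes include it. Levels below are counts summed over the cells of a class in a library, scaled to a common total (CPM), and where a pair of values is given the control library comes first and the PS-MP library second. Ratios are PS-MP over control, and all intervals are at 95% and cover counting error only. CPM is not scaled by transcript length, so levels were compared within a gene and not between genes.

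Across 8 cell classes with at least 50 cells in both libraries, each member had its own order of levels. Neighbouring classes were counted as apart where both libraries of one lay above both of the other with no overlap of intervals. Yap1 and Tead1 were highest in smooth muscle or pericyte-like and stromal fibroblast-like cells, Wwtr1 in blood endothelial-like cells, and the CCN genes in granulosa-like and contractile cells. For 5 of the 9 members the class with the highest level was the same in both libraries (Yap1, Wwtr1, Lats2, Ccn1 and Amotl2).

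Yap1 mRNA was spread over nearly all classes. It stood at 172 and 178 CPM in smooth muscle or pericyte-like cells, and at 145 and 143 CPM in stromal fibroblast-like cells. Granulosa-like, blood endothelial-like, oocyte-like and theca-like cells lay between 108 and 126 CPM and were not apart from each other. Macrophage or monocyte-like cells were lowest, at 23.8 and 37.7 CPM, and were apart from all other classes ordered.

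Wwtr1 mRNA was highest in blood endothelial-like cells, at 372 and 381 CPM, apart from every other class. Smooth muscle or pericyte-like cells (202 and 176 CPM) and stromal fibroblast-like cells (176 and 184 CPM) followed and were not apart from each other. Granulosa-like cells held 132 and 115 CPM. Wwtr1 thus differed more between classes than Yap1 did, with its peak in vessels. At equal depth (each cell thinned to 3500 counts) 66.6% of control and 64.7% of PS-MP endothelial-like cells had a Wwtr1 count, against 6.76% and 8.81% of macrophage or monocyte-like cells.

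Tead1, which encodes a DNA-binding partner of YAP and TAZ, was highest in smooth muscle or pericyte-like cells (180.4 and 142 CPM) and stromal fibroblast-like cells (166 and 145 CPM). These were not apart from each other, and both lay above theca-like cells at 103 and 97.3 CPM. Granulosa-like cells held 87.0 and 78.1 CPM. Of the other TEAD genes, Tead2 stood at 89.2 and 89.1 CPM in granulosa-like cells, Tead3 at 9.95 and 9.39 CPM, and Tead4 at 0.391 and 0.384 CPM. Tead4 reached 26.0 and 14.0 CPM in blood endothelial-like cells.

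The kinase genes had different orders of classes. Lats1 ranged from 23.5 to 53.2 CPM over the 8 classes, and no pair of neighbours in its order was apart. Classes further from each other in the order could be apart. Granulosa-like cells (52.3 and 46.7 CPM) lay above macrophage or monocyte-like cells (34.2 and 30.2 CPM) with no overlap of intervals. Lats2 was highest in blood endothelial-like cells, at 105 and 104 CPM, and in smooth muscle or pericyte-like cells, at 103 and 85.5 CPM. Granulosa-like cells held 51.1 and 49.6 CPM of Lats2, close to macrophage or monocyte-like cells at 42.7 and 44.8 CPM. Lats2 thus had its high classes in common with Wwtr1, and across the 16 points of class and library Pearson's r between these genes was 0.87 on log2(CPM + 1). This was the highest r among pairs of members, followed by Yap1 and Tead1 at 0.81. The points share libraries and the granulosa marker counts described below, and the values are a description.

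Ccn1, which encodes the secreted matrix protein CYR61, was highest in granulosa-like cells, at 531 and 585 CPM, apart from the next class. Theca-like cells (362 and 310.2 CPM) and smooth muscle or pericyte-like cells (329 and 342 CPM) followed by the mean of both libraries. Luteal-like cells, which came from different clusters in the libraries, held 177 and 403 CPM. Within the granulosa-like class Ccn1 was highest in cluster 0, at 1082 and 1194 CPM. The other granulosa-like clusters held 104 to 450 CPM in control cells and 176 to 499 CPM in PS-MP cells. The order of classes was not made without cluster 0. Ccn2, which encodes the related protein CTGF, was high in the same contractile cells (261 and 173 CPM) and in granulosa-like cells (244 and 198 CPM), which were not apart from each other. The other classes ordered held at most 85.4 CPM of Ccn2. Within the granulosa-like class cluster 0 held 742 and 602 CPM of Ccn2. The other granulosa-like clusters held at most 196 and 165 CPM, below the contractile cells of the same library. Of the other CCN genes, Ccn4 and Ccn5 stood at 0.727 and 1.07 CPM in control granulosa-like cells.

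Amotl2, whose product binds YAP at cell junctions, stood at 145 and 165 CPM in granulosa-like cells, the highest class in both libraries. Theca-like cells held 127 and 137 CPM and blood endothelial-like cells 127 and 121 CPM. Stromal fibroblast-like cells were low, at 69.6 and 71.4 CPM. Amotl2 thus had its low mesenchymal classes where Yap1 and Tead1 were high. Macrophage or monocyte-like cells were lowest, at 24.5 and 40.1 CPM.

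**Figure D1:**
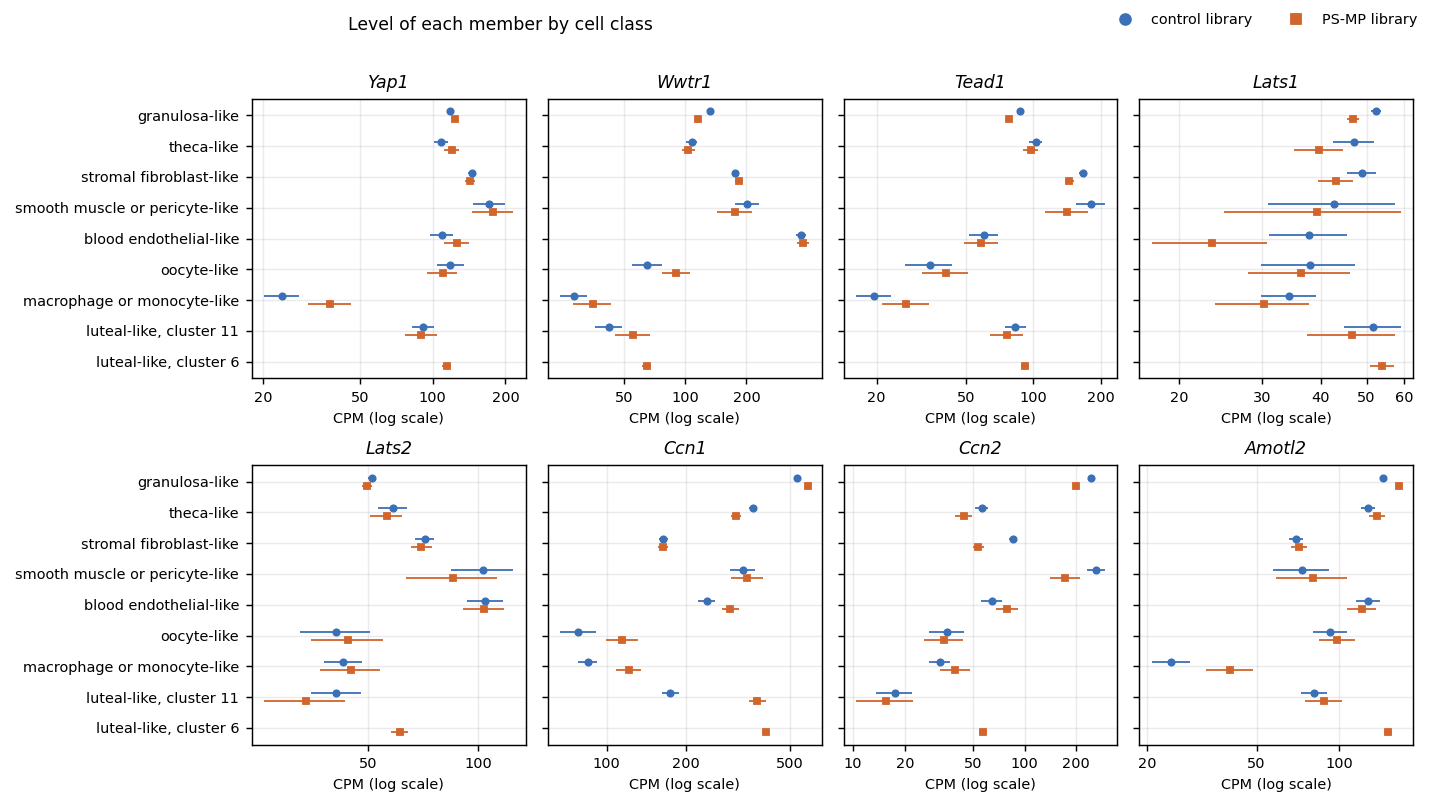
Level of 8 members in CPM (log axis) by cell class, circles for the control library and squares for the PS-MP library, with Poisson intervals at 95% (cluster 6 for PS-MP alone, since control had 4 cells there, and Ankrd1 left out for its few counts). Wwtr1 peaks in blood endothelial-like cells at 372 and 381 CPM and Ccn1 in granulosa-like cells at 531 and 585 CPM.

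Genes with the most similar pattern over the 16 points, among 11236 genes compared, were named for each member by Pearson's r. For Wwtr1 they were Meis2 (0.95), Dlc1 (0.95) and Pxdn (0.94), and for Tead1 they were Syde1 (0.97), Atn1 (0.96) and Nedd4 (0.96). Lats2 was followed most closely by Lama4 (0.96), Sema6a (0.94) and Ehd2 (0.94), Yap1 by Rbbp9 (0.95), Rbfox2 (0.93) and Wdr82 (0.92), and Lats1 by B3galnt2 (0.90) and Alg10b (0.87). Khdrbs3 (0.93), Mast4 (0.91) and Pdlim1 (0.90) came nearest to Ccn2, and Purb (0.91), Pitpnb (0.90) and Creb3l2 (0.90) to Ccn1. Nearest to Amotl2 were Pcmtd2 (0.91), Tmem98 (0.88) and Glo1 (0.87). Nearest to Ankrd1, which is almost absent from most classes, were Cabp1 (0.92), Parm1 (0.92) and Plpp2 (0.87). Of its 160 PS-MP counts 149 lay in cluster 6, which is part of the luteal-like PS-MP point. No other member was among the 3 nearest genes of any member.

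Granulosa markers were also counted in other classes. The 14 granulosa markers stood in macrophage or monocyte-like cells at a median of 15.5% (range 13.6% to 40.4%) of their granulosa-like level in control cells and 17.8% (9.36% to 49.5%) in PS-MP cells. Ccn2 in those cells stood at 13.1% and 19.8% of its granulosa-like level, Ccn1 at 15.9% and 20.7%, and Amotl2 at 16.9% and 24.2%. The top of the marker range was Kitl, which was also high in blood endothelial-like cells, and without it the ranges were 13.6% to 20.2% and 9.36% to 31.4%. Ccn1 and Amotl2 lay within these, and so did Ccn2 in PS-MP cells, while in control cells it lay just below. Yap1 lay within them as well, at 20.1% and 30.4%. Wwtr1, at 21.3% and 30.3%, was just above the control range, and Tead1, at 22.4% and 34.7%, was above both. How much of these counts was free RNA of granulosa-like cells was not tested. Lats1 stood at 65.5% and 64.7% and Lats2 at 83.5% and 90.3%, above the highest marker. In blood endothelial-like cells the markers had medians of 13.9% and 12.1%, against 282% and 331% for Wwtr1 and 45.2% and 50.6% for Ccn1. In T or NK-like cells (99 and 47 cells) the markers had medians of 52.9% and 54.4%, and no level of a member was read there.

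**Figure D2:**
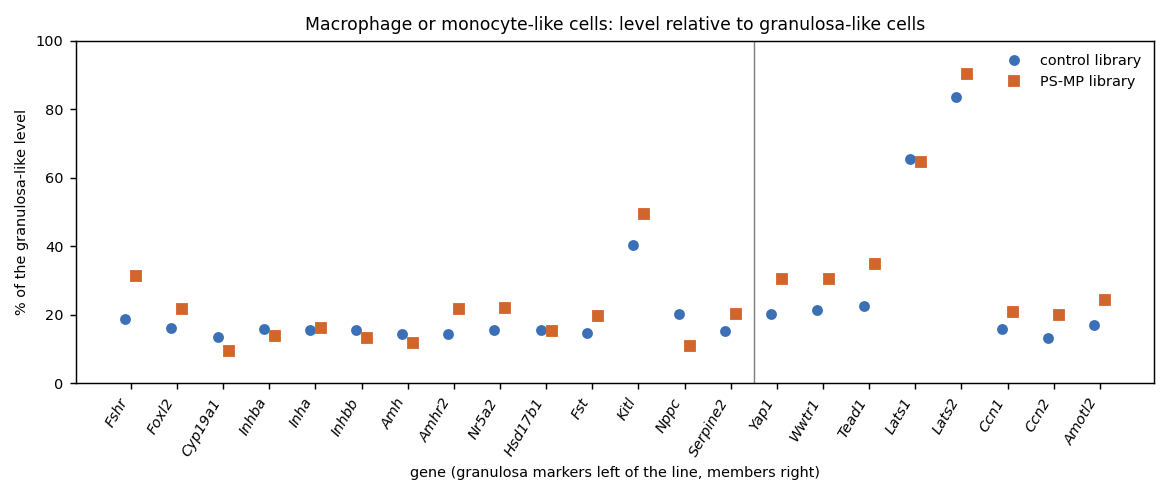
Level in macrophage or monocyte-like cells as a percentage of the granulosa-like level of the same library, for 14 granulosa markers (left of the line) and 8 members (right of it), circles for control and squares for PS-MP. Ccn1, Ccn2 and Amotl2 lie among or just below the markers, Tead1 above all of them but Kitl, and Lats1 and Lats2 lie above all of them, from 64.7% to 90.3%.

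Within the granulosa-like cells the targets and the pathway genes were unevenly spread over the 6 clusters. Cluster 0, led by H19, Pik3ip1, Col11a1 and Ccn2, held the most Ccn2, at 742 and 602 CPM. The lowest cluster, cluster 9 (led by Pcsk6, Car4 and Omg), held 20.2 and 24.0 CPM. Ccn2 is one of the genes that define cluster 0, and Ccn1, Ccn2 and Ankrd1 were among the variable genes used for clustering, so these levels describe the clusters and are no finding about them. At equal depth a Ccn2 count was seen in 58.6% and 53.9% of cluster 0 cells. In cluster 9 the shares were 5.71% and 7.32%, near the 5.41% and 3.98% of macrophage or monocyte-like cells. Cells of cluster 0 had median depths of 8244.0 and 7175.0 counts before thinning, those of cluster 9 of 6870.0 and 6112.0, and macrophage or monocyte-like cells of 6831.5 and 5655.5.

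Members that were not among the variable genes had orders of their own. Wwtr1 stood at 223 and 179 CPM in cluster 0 and at 93.7 and 87.8 CPM in cluster 2, which was led by Inhba, Cyp19a1 and Grem1, genes of oestrogen-producing follicles. Cluster 9 held 170 and 199 CPM of Wwtr1, so its highest cluster was cluster 0 in the control library and cluster 9 in the PS-MP library. Tead1 was highest in cluster 0 in both libraries, at 139.6 and 115.5 CPM, and lowest in cluster 2, at 63.0 CPM in both. Yap1 varied less, from 102 to 152 CPM in control cells and from 111 to 144 CPM in PS-MP cells. Of the kinase genes, Lats2 was lowest in the mitotic cluster 3 (Ube2c, Ccnb1), at 34.0 and 35.9 CPM, and highest in cluster 9, at 84.3 and 84.0 CPM.

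Cluster 9 set the targets apart from each other. Amotl2 was highest there, at 287 and 309 CPM, while Ccn1 was lowest there, at 104 and 176 CPM, as was Ccn2. In cluster 0 all of Ccn1 (1082 and 1194 CPM), Ccn2 and Amotl2 (209.7 and 239 CPM) were high. In cluster 2 Amotl2 was at its lowest level in the control library, 87.7 CPM. Clusters 1 (Slc38a3, Efl1) and 5 (Igfbp5, Amh) lay between, with 150.1 and 149 CPM of Amotl2 in the control library.

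**Figure D3:**
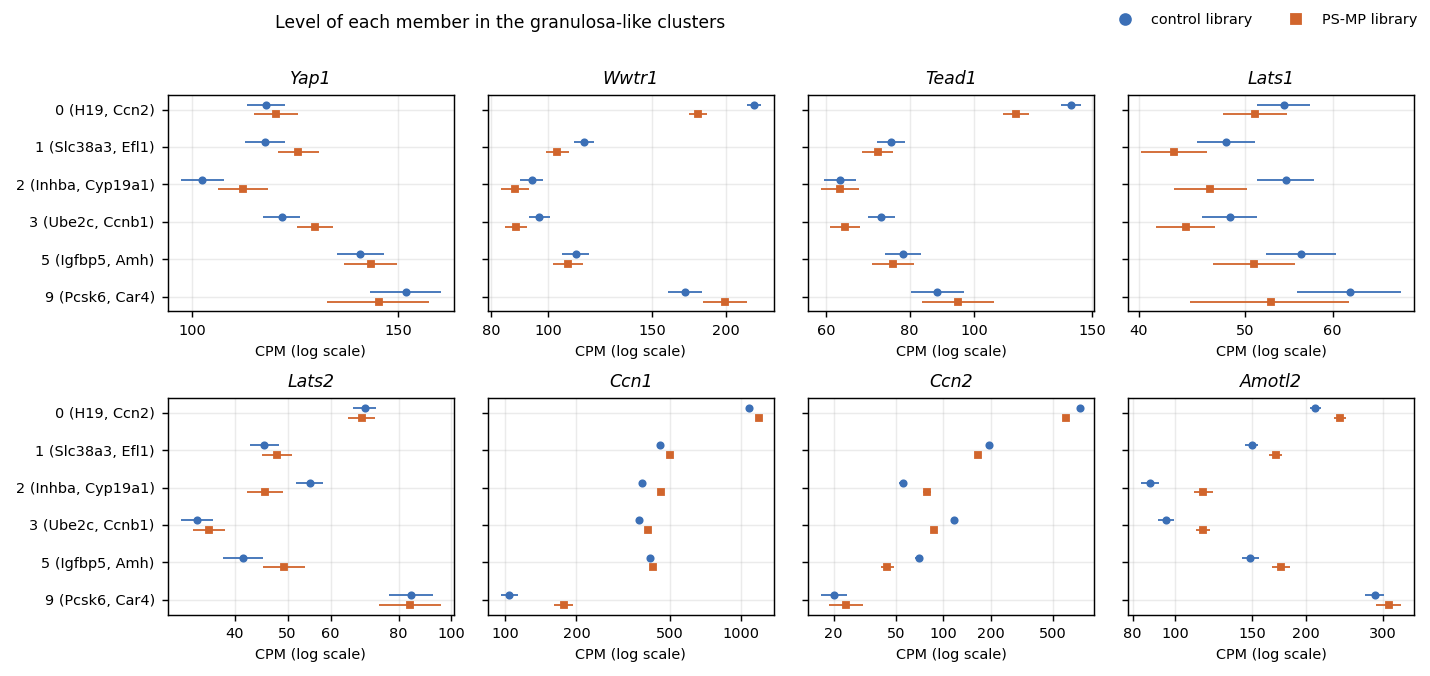
Level of 8 members in CPM (log axis) in the 6 granulosa-like clusters, named by number and leading genes, circles for the control library and squares for the PS-MP library, with Poisson intervals at 95%. Ccn2 runs from 742 CPM in cluster 0 to 20.2 CPM in cluster 9 in the control library, while Amotl2 is highest in cluster 9 at 287 CPM.

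The comparison of PS-MP with control asks how the exposure went with expression of these genes. A gene was called higher or lower where the libraries were at least 1.2-fold apart, the level reached 20 CPM in a library and the interval of the ratio did not include 1. Of the 9 members 8 reached that level in granulosa-like cells, and Ankrd1 did not. Cluster 1 had 0 granulosa markers and 1 marker of another class among its leading genes, so the clusters were compared by number and the class was also summed without it. Clusters 0, 3 and 9 also had 0 granulosa markers among their leading genes, but 0 of another class. The granulosa marker score was lowest in cluster 0, at 0.268, against 0.363 in cluster 1. The class was not summed without cluster 0, 3 or 9.

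Ccn2 was the 1 member of 8 called in granulosa-like cells as a class, against 5.63% of 7350 genes. It stood at 244 CPM (95% interval 241 to 247) in control cells and 198 CPM (195 to 201) in PS-MP cells, a ratio of 0.812 (0.797 to 0.827). Without cluster 1 the levels were 257 and 208 CPM, a ratio of 0.809 (0.792 to 0.826), and Ccn2 was again the 1 member called, against 6.47% of genes. Most Ccn2 counts of the class lay in cluster 0, with 17441 of 26906 in control cells and 10624 of 17566 in PS-MP cells. The class ratio therefore rests largely on cluster 0, and whether the call holds without it was not tested. The other members differed less: ratios were 1.10 for Ccn1, 1.14 for Amotl2, 1.05 for Yap1, 0.873 for Wwtr1, 0.897 for Tead1, 0.894 for Lats1 and 0.970 for Lats2. The related genes Ccn1 and Ccn2 thus lay on opposite sides of equality. After thinning of every cell to 3500 counts the log2 ratio of Ccn2 moved from -0.30 to -0.26, short of the 1.2-fold limit, and giving the 6 clusters equal weight also left it at -0.26.

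By cluster, Ccn2 was lower in PS-MP cells in most granulosa-like clusters and higher in cluster 2. In cluster 0 the ratio was 0.811 (0.792 to 0.831). The mitotic cluster 3 held 117 and 86.7 CPM, a ratio of 0.743 (0.702 to 0.786). Cluster 5, whose leading genes include Amh of small growing follicles, held 69.9 and 44.0 CPM, a ratio of 0.630 (0.562 to 0.706). Cluster 1 held 196 and 165 CPM, a ratio of 0.844, which was not called. In cluster 2 the order was the other way, with 55.1 and 78.7 CPM, a ratio of 1.43 (1.31 to 1.55). The share of cluster 2 cells with a Ccn2 count at equal depth was 9.71% and 13.4%. Cluster 9 held few counts, and its interval of 0.860 to 1.62 included 1, but with called doublets kept the ratio there was 1.79 (1.35 to 2.37).

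Since Ccn2 took part in the clustering, clusters were also drawn without the 9 members. The cluster that held 95.5% of the cells of cluster 2 then had 54.0 and 67.5 CPM of Ccn2, a ratio of 1.25 (1.16 to 1.35). The cluster that held 62.3% of the cells of cluster 0, and 54.9% of those of cluster 1, had 488 and 373 CPM, a ratio of 0.765. Both directions were therefore also seen in clusters drawn without Ccn2. With finer clusters the ratio in the match of cluster 2 was 1.81, and with coarser clusters 1.28. The finer match held 60.58% of the cells of cluster 2, and the coarser one 98.85%. In all the finer match had 1190 control and 1963 PS-MP cells, where cluster 2 had 2163 and 1665. Its ratio of 1.81 therefore compares a different set of cells in each library.

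The targets Ccn1, Ccn2 and Amotl2 were all higher in PS-MP cells of cluster 2. There, 4 of the 8 members tested were called, against 14.8% of genes: Ccn1, Ccn2 and Amotl2 were higher and Lats2 was lower. Ccn1 stood at 378 and 456 CPM, a ratio of 1.21 (1.17 to 1.25), and Amotl2 at 87.7 and 116 CPM, a ratio of 1.33 (1.24 to 1.42). Lats2, the kinase gene, stood at 54.9 and 45.5 CPM, a ratio of 0.829 (0.752 to 0.913). In the cluster drawn without the members the ratios were 1.24 for Amotl2 and 0.802 for Lats2, but 1.10 for Ccn1, short of the limit. With coarser clusters the Ccn1 ratio was 1.13, and with finer clusters the Lats2 ratio was 0.990 (0.884 to 1.11), so these calls depend on how the cluster is drawn. In a list of other YAP and TAZ signature genes 9 were tested in cluster 2, of which 0 were called higher and Crim1 was lower, at 562 and 400.3 CPM. Ccn1 is also an immediate early gene, one that responds quickly to stimuli such as cell dissociation. Of 20 other immediate early genes 3 were higher and 3 lower in cluster 2, against 5.51% and 9.28% of all genes.

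Cluster 0 had 3 of 8 members called, against 9.78% of genes (3.61% higher and 6.17% lower), and all 3 were lower in PS-MP cells. Beside Ccn2 these were Wwtr1, at 223 and 179 CPM, with a ratio of 0.804 (0.769 to 0.840), and Tead1, at 139.6 and 115.5 CPM, with a ratio of 0.827 (0.782 to 0.874). In the cluster drawn without the members, Wwtr1 had a ratio of 0.823 and Tead1 one of 0.887, which is under the 1.2-fold limit. Vgll4, which encodes a competitor of YAP for TEAD, was also lower in cluster 0, at 59.1 and 47.0 CPM. Of the 20 immediate early genes 7 were higher there, among them Klf4, at 177 and 261 CPM, and their part in the levels of the members was not tested.

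In the other granulosa-like clusters calls were few. Cluster 3 had 2 of 8 (9.62% of genes): Ccn2 lower and Amotl2 higher, the latter at 95.4 and 116 CPM with a ratio of 1.22 (1.15 to 1.28). The Amotl2 ratio was 1.14 in the nearest cluster drawn without the members, which held 49.3% of these cells, and 1.12 with finer clusters, both short of the limit. Cluster 5 had 1 of 8 (12.1% of genes), which was Ccn2. Lats2 had a ratio of 1.19 there and passed the limit in the other clusterings, with 1.33 when called doublets were kept. Cluster 1 had 0 of 8 (7.42% of genes). In the match of cluster 1 the Ccn2 ratio passed the limit in coarser clusters, at 0.818, and with called doublets kept, at 0.796. With finer clusters it was 0.943, further from a call. These matches held 72.4%, 70.3% and 58.1% of the cells of cluster 1. The first and second held more Ccn2 in control cells, at 270.3 and 365.3 CPM against 196 CPM, so they are not the same cells. Cluster 9 had 1 of 8 (12.4% of genes). This was Ccn1, at 104 and 176 CPM, a ratio of 1.70 (1.499 to 1.92). Its share of cells with a count at equal depth was 16.7% and 25.9%. Wwtr1 had a ratio of 1.17 (1.05 to 1.30) in cluster 9, short of the limit and on the other side of equality from cluster 0. The ratios of Ccn1 and Amotl2 were above 1 in all 6 granulosa-like clusters, mostly by less than the 1.2-fold limit, and the intervals of Ccn1 in cluster 5 and of Amotl2 in cluster 9 included 1.

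**Figure D4:**
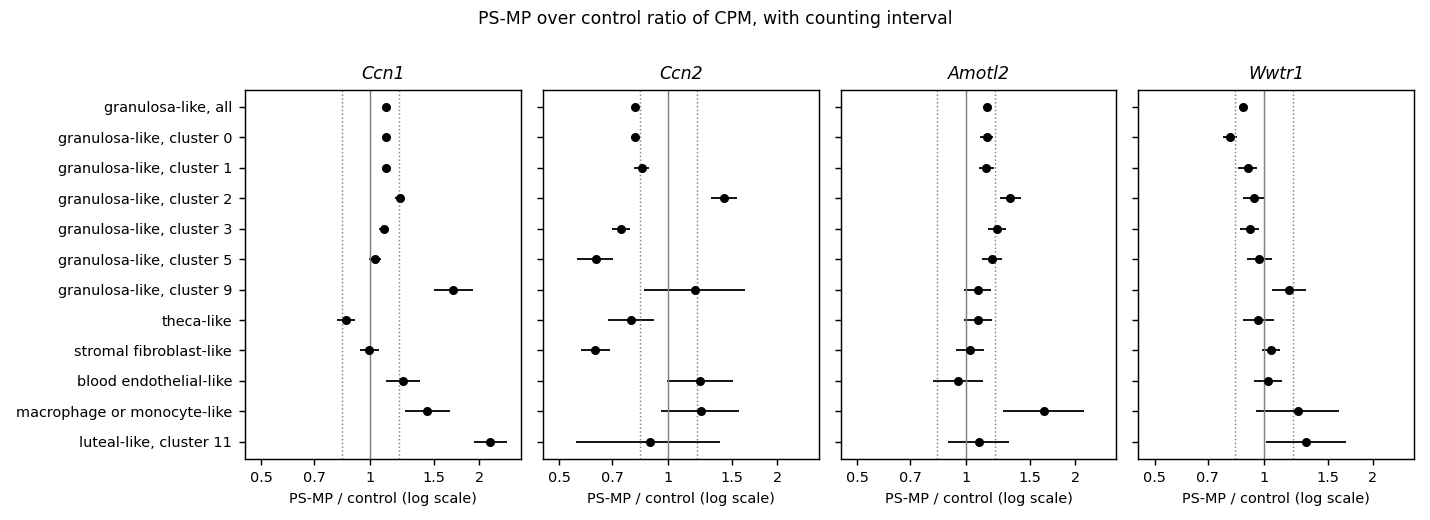
PS-MP over control ratio of CPM (log axis) of Ccn1, Ccn2, Amotl2 and Wwtr1 in granulosa-like cells, their clusters and 5 other groups of cells, with counting intervals at 95%, a solid line at 1 and dotted lines at 1.2-fold either way. Ccn2 lies at 0.743 in cluster 3 and 0.630 in cluster 5 but at 1.43 in cluster 2, and Ccn1 is highest in cluster 11 at 2.15.

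Few of the genes upstream of the members were called in granulosa-like cells, as was so over all genes. Of 30 listed Hippo kinases and regulators 20 were tested, and 0 were called higher and 1 lower. Over all 7350 genes tested 1.32% were higher and 4.31% lower, so this count was near the general share. The median log2 ratio of the list was -0.08, beside -0.02 over all genes tested. The lower gene was Vgll4, at 32.2 and 26.4 CPM. Sav1, the scaffold of the MST kinases, had a ratio of 0.996, the LATS cofactor gene Mob1a one of 0.917, and the kinase gene Map4k4, at 221 and 202 CPM, one of 0.912. In the list of YAP and TAZ signature genes 11 of 20 were tested, 0 were called higher and 1 lower, Crim1, at 402 and 330 CPM with a ratio of 0.819. The signature gene F3 had the largest ratio, at 36.4 and 43.7 CPM, and was just short of a call. Of the immediate early genes 19 of 20 were tested, 2 were called higher (Ier3 and Klf4) and 0 lower. Axl stood at 124 and 122 CPM. The members themselves had a median log2 ratio of -0.10 over the 8 tested.

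Stromal fibroblast-like cells (1702 and 1551 cells) had Ccn2 as their 1 member of 8 called, against 10.8% of 7139 genes. Ccn2 stood at 85.4 CPM (80.9 to 90.1) in control cells and 53.8 CPM (49.8 to 58.0) in PS-MP cells, a ratio of 0.630 (0.574 to 0.691). The share of cells with a count at equal depth was 13.6% and 9.15%. Granulosa markers stood there at medians of 4.63% of their granulosa-like level in both libraries (ranges 3.54% to 52.9% and 3.21% to 49.6%), and Ccn2 at 34.9% and 27.1%. Ccn2 was also lower by more than 1.5-fold, as were 0.252% of genes in this class. Ccn1 was alike in the libraries, at 165 and 164 CPM with an interval of the ratio from 0.938 to 1.05, and Tead1 had a ratio of 0.872.

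Theca-like cells (795 and 741 cells) also had Ccn2 as their 1 member of 8 called, against 14.4% of 7154 genes. It stood at 56.2 and 44.3 CPM, a ratio of 0.789 (0.681 to 0.913). The share of cells with a count at equal depth was 6.92% and 6.88%, and under the alternatives run the log2 ratio ranged from -0.48 to -0.04. Ccn1 stood at 362 and 310.2 CPM in theca-like cells, a ratio of 0.856 (0.810 to 0.905), below equality but short of the limit. The ratios of Ccn1 in granulosa-like and theca-like cells thus lay on opposite sides of equality, and this difference was not tested.

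Smooth muscle or pericyte-like cells (144 and 89 cells) were below the 200 cells set for calls. Their Ccn2 level was 261 CPM (230.1 to 294) in control cells and 173 CPM (141 to 209.8) in PS-MP cells, a ratio of 0.662 (0.521 to 0.836). Ccn1 stood at 329 and 342 CPM there, and its interval of 0.868 to 1.24 included 1. Of the classes with high Ccn2, then, this one too had less of it in the PS-MP library.

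In blood endothelial-like cells (350 and 312 cells) 2 of 8 members were called, against 15.7% of 7294 genes. Lats1 was lower, at 37.8 CPM (31.1 to 45.5) in control cells and 23.5 CPM (17.5 to 30.8) in PS-MP cells, a ratio of 0.621 (0.438 to 0.870). These values rest on 112 and 52 counts. After thinning the ratio of Lats1 was no longer called, with a log2 ratio between -0.82 and -0.50 over the alternatives. Ccn1 was higher, at 240.2 and 296 CPM, a ratio of 1.23 (1.11 to 1.37), and lost its call when called doublets were kept, with a stricter filter on cells or as a mean over cells. Of the Hippo kinases and regulators 8 of 24 tested were lower and 0 higher in these cells, against 9.36% and 6.31% of all genes. Among the lower ones were the MST kinase genes Stk3 and Stk4, Mob1b, Taok1 and Vgll4 (140.0 and 111 CPM). Tead4 was lower as well, with a ratio of 0.538. Of the immediate early genes 8 of 20 were lower and 0 higher in the same cells, and their part in these values was not tested.

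In macrophage or monocyte-like cells (740 and 352 cells) 4 of 8 members were called, all higher in PS-MP cells. Over all 7070 genes tested 16.0% were called in either direction, 9.35% higher and 6.61% lower. The ratios were 1.58 for Yap1, 1.39 for Tead1, 1.43 for Ccn1 and 1.64 for Amotl2. The calls of Yap1, Tead1 and Amotl2 were lost in thinned cells, and those of Yap1 and Tead1 with called doublets kept. Tead1 kept its call in 7 of 13 alternatives, with log2 ratios from 0.12 to 0.78. The summed granulosa markers stood in these cells at 15.6% and 16.8% of their granulosa-like level, and their part in the 4 ratios was not tested. Lats1 and Lats2, the members far above the markers, had ratios of 0.884 and 1.05, with intervals that included 1.

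The luteal-like cells came from different clusters in the libraries, so their class ratio compares clusters as well as groups. Of 8 members 6 were called higher (Yap1, Wwtr1, Lats2, Ccn1, Ccn2 and Amotl2), where 51.2% of 7340 genes were called in either direction and 28.7% higher. Cluster 6, led by Edn2 and Tinagl1, gave 1899 of the 2032 PS-MP cells. Cluster 11, led by Akr1c18, Sfrp4 and Ptgfr, held 234 control and 133 PS-MP cells, and within it the libraries can be set side by side. There Yap1 stood at 91.4 and 89.9 CPM, Amotl2 at 81.0 and 87.8 CPM, Lats2 at 40.9 and 33.7 CPM and Ccn2 at 17.4 and 15.5 CPM, with intervals of the ratio that included 1. Wwtr1 stood at 42.1 and 55.1 CPM, a ratio of 1.31 (1.02 to 1.68). Of the 6 members, then, 4 were not shown to differ within cluster 11.

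Ccn1 differed most. In cluster 11 it stood at 175 CPM (162 to 188) in control cells and 375 CPM (347 to 403) in PS-MP cells, a ratio of 2.15 (1.93 to 2.38). The share of cells with a Ccn1 count at equal depth was 23.9% and 51.1%. Cluster 11 was below the 200 cells set for calls, and by the same limits of fold and level 11.3% of 7053 genes were higher there, with Ccn1 ranked 85 by ratio. Immediate early genes were also higher there, 14 of 20 with 1 lower, among them Ier3 at 80.7 and 182 CPM and Egr2 at 75.5 and 162 CPM. Some leading genes of cluster 6 were higher in PS-MP cells of cluster 11 too, with Edn2 at 14.2 and 55.1 CPM and Spp1 at 8.72 and 91.0 CPM, while others such as Bhmt, at 151 and 28.9 CPM, were lower. The part of either set of genes in the Ccn1 value was not tested. Cluster 6 itself held 405 CPM of Ccn1 and 57.3 CPM of Ccn2 in PS-MP cells.

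Ankrd1, which encodes a cardiac and muscle ankyrin repeat protein used as a readout of YAP, was nearly absent. It had 8 control counts and 160 PS-MP counts, and 149 of the latter lay in cluster 6. They came from 92 of its 1899 cells, of which 70 had a single count and 9 had 3 or more, up to 9 in a cell. This gave 6.99 CPM (5.91 to 8.20) in cluster 6. Without that cluster the libraries had 7 and 11 counts, a ratio of 2.03 (0.719 to 6.18), so the difference over all cells lay in cluster 6. Smooth muscle or pericyte-like cells held 4 and 3 counts, or 3.97 and 5.13 CPM, and granulosa-like cells 1 and 2 counts. In theca-like, blood endothelial-like and oocyte-like cells there were 0 counts in both libraries, which in theca-like cells allows up to 0.353 and 0.442 CPM, taken as 3 counts per library. The control library's 4 cells of cluster 6 held 1 count, too few to say whether the gene was present in such cells of control mice.

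Over all cells Ccn2 was the 1 member of 8 called, against 14.0% of 7663 genes, at 195 and 146 CPM with a ratio of 0.747 (0.734 to 0.761). Without cluster 6 the ratio was 0.829 (0.814 to 0.845), and Ccn2 was again the 1 member called, against 5.63% of genes.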

How the data were processed

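The authors deposited raw UMI counts per gene and cell for 2 libraries, with no normalization in the values. GRCm39 and Seurat are named, without a role, per the submitters' processing notes; no aligner, counting tool or cell calling was named there or in the labels (not given in the sources used here). Cells with at least 500 genes and at most 25% mitochondrial counts were kept, and Scrublet doublets (315 control, 358 PS-MP) were left out. With scanpy 1.11.5, 2000 variable genes, 30 principal components, 15 neighbours and Leiden resolution 0.5 gave the clusters. Each cluster was named by the class that scored highest on its detected markers, with at least 3 of them required; this scoring rule was set after the files were read. Levels carry exact Poisson intervals and ratios exact conditional binomial ones. Deposited totals were 160257194 and 145474989 counts, and the lowest totals per cell 3738 and 3575, so thinning to 3500 left out none. UMI counts of 1 library do not measure variation between mice. The 9 members were all named; other named genes are the extremes and highest levels of 5 fixed lists, the 3 genes most like each member, markers, genes that lead a cluster, and a few called list genes named after their values were seen; a few genes that the rule would name are not reported here. Members, lists and comparisons were chosen with earlier results of these data known. The ratio script was tested on simulated data. Promoter windows are RefSeq's, on GRCm38.p6, a different build from the counts; no coordinates were carried between builds.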

Additional observations from a re-analysis of the deposited data

Results flagged for a closer look

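Ccn2 differed in direction between clusters. Its log2 ratio of PS-MP to control was 0.51 in cluster 2 (granulosa-like, led by Inhba and Cyp19a1), and it was -0.30 in cluster 0, -0.43 in cluster 3 and -0.67 in cluster 5, which are granulosa-like as well. It was -0.67 in the stromal fibroblast-like cluster 4 and -0.34 in the theca-like cluster 7. With 1 library per group the difference between these clusters was not tested.

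Tead1 had a log2 ratio of 0.47 in the macrophage or monocyte-like cluster 8 and of -0.27 in the granulosa-like cluster 0. This difference was not tested either. In cluster 8 Tead1 stood at 22.4% and 34.7% of its granulosa-like level, against granulosa marker medians of 15.5% and 17.8%, and its call there was kept in 7 of 13 alternatives.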

How the results depend on the processing

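Over 544 log2 ratios of members recomputed under the alternatives, 514 stayed within their counting interval, 30 moved further and 0 changed sign after a call. These values leave out the luteal-like class and the counts of calls, which are given next. The count of 1 member called in granulosa-like cells became 0 with cells thinned to one depth, 0 at a limit of 1.5-fold and 0 with the granulosa-like clusters weighted alike, and 2 (Wwtr1 and Ccn2 lower) with the one-library luteal-like cluster 6 counted as granulosa-like. The 14 calls added over the other classes became 7 with thinned cells, 6 with the stricter cell filter, 7 at 1.5-fold and 8 without the luteal-like class. The alternatives without cluster 1, without the luteal-like class and with clusters drawn without the members were chosen after seeing the data. The 9 calls outside the luteal-like class kept their direction under each alternative; the stromal Ccn2 call held in 13 of 13, that in granulosa-like cells in 13 of 16 (log2 -0.51 to -0.26). The median log2 ratio of all genes lay between -0.03 and 0.03 in the classes compared. Thinning ended the calls of Ccn2 in granulosa-like and theca-like cells, of Lats1 in blood endothelial-like cells and of Yap1, Tead1 and Amotl2 in macrophage or monocyte-like cells. No paired analysis was possible because each group has 1 library.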
